A study of Homo sapiens with 2 samples.

Results

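The genes described here encode the enzymes that neutralise reactive oxygen species and electrophiles, supply the NADPH this work consumes, store iron and reduce reactive carbonyls. They were chosen by name, as 37 listed genes, and every probe set whose single annotated gene was on the list was taken. This found 35 of the 37 genes among 18392 genes in all, with 59 probe sets. FTH1 and AKR1B1 were not analysed here.

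The measurements came from PC3, an established human prostate cancer cell line derived from a metastasis to bone, grown in serum-containing medium. One culture received the solvent DMSO and the other 10 µM fluphenazine, an antipsychotic of the phenothiazine class and a dopamine receptor blocker. Each treatment was read on 1 Affymetrix array, and the sources used here do not give the treatment time. PC3 is a single cell line, so the values describe that line only.

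No comparison below has replicate cultures. No test, p-value or error between cultures could therefore be given, and every difference is between these 2 arrays. All values are log2 signals of a probe set, and a difference is the fluphenazine value minus the DMSO value, so that 1 unit is a factor of 2. A gene is represented by its probe set with the highest mean. A floor of 6.19 was set at the median, over all genes, of each gene's higher value, and a gene counts as above it when 1 or both arrays reached it. The pooled SD of the differences between probe sets that read the same gene was 0.13, from the 3668 genes read by several probe sets above the floor. That SD measures noise within the arrays and contains no variation between cultures.

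The epithelial markers KRT8, KRT18, KRT19, EPCAM and CDH1 were all above the floor, between 9.28 and 12.72 on the 2 arrays. Of the blood markers, 0 of 4 analysed were above it, at 2.63 to 5.83 with DMSO and 3.1 to 5.62 with fluphenazine. The same held for 0 of 3 liver markers. PECAM1, at 8.76 and 8.49, was the 1 of 3 endothelial markers above the floor, and COL1A1, at 8.33 on both arrays, the 1 of 5 fibroblast markers. The poly-A spike-in controls, transcripts added before labelling, were lower on the fluphenazine array at all 24 probe sets, by a median of 0.22. The median difference was -0.34 at their 5′ ends and -0.12 at their 3′ ends, and that of the ACTB control was -0.13 at the 5′ end and 0.00 at the 3′ end. Hybridization controls, added after labelling, were lower at 14 of 18 probe sets, by a median of 0.07. The part of these control differences in the values below was not tested.

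The transcription factor NRF2, the product of NFE2L2, pairs with small MAF proteins on antioxidant response elements and switches on most of the genes listed here. KEAP1 holds NRF2 in the cytoplasm and hands it to the CUL3 ubiquitin ligase until oxidants or electrophiles modify KEAP1. Because this control acts mainly on NRF2 protein, transcript levels of NFE2L2 and KEAP1 are an incomplete view of it. Glutathione and thioredoxin are the main thiol systems that NADPH recharges.

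The antioxidant genes differed little between the arrays and did not move as one group. Of the 31 genes above the floor, 10 were higher and 21 lower with fluphenazine, and their median difference was -0.08, a 1.06-fold difference. Of all 9196 genes above the floor, 48.2% were higher and 51.8% lower, with a median of -0.01. No listed gene reached 1.5-fold in either direction, where 0.283% of all genes were at least 1.5-fold higher and 0.294% at least 1.5-fold lower. At a difference of 0.32 or more in size, AKR1B10 was the 1 gene lower and 0 were higher, against 2.58% and 2.69% of all genes. A share of 1 in 31 is near that background.

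Of the roles with several genes above the floor, NADPH supply, aldo-keto reductases and the heme and iron genes each lay on one side of 0, and the others held genes of both signs. Differences beyond the pooled SD were found for 6 higher genes, namely NFE2L2, MAFG, GCLC, GCLM, TXNRD1 and SOD2, which is 19.4% of the 31, where 17.9% of all genes were higher by as much. The lower genes beyond it numbered 13, or 41.9%, where 19.6% of all genes were. They comprised the 4 aldo-keto reductases, TKT and TALDO1, GPX1, GSTP1, GSTM3, PRDX1, CBR1, SOD1 and CAT, with CAT only just past the limit. That limit was chosen after the values were seen. Without probe sets marked as able to match several transcripts, 20 listed genes were above the floor. Of these, 11 were lower (55.0%, against 49.5% of all genes), 6 were lower by more than the pooled SD (20.3% of all genes were) and 5 higher (20.6% of all genes), and their median was -0.01. The differences of the 31 genes had an ordinary SD of 0.19 among themselves, which includes AKR1B10 at -0.50. Over all genes the spread was taken as a robust SD, 0.14, which gives little weight to extreme values. These are unlike measures, so the spreads cannot be compared.

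**Figure D1:**
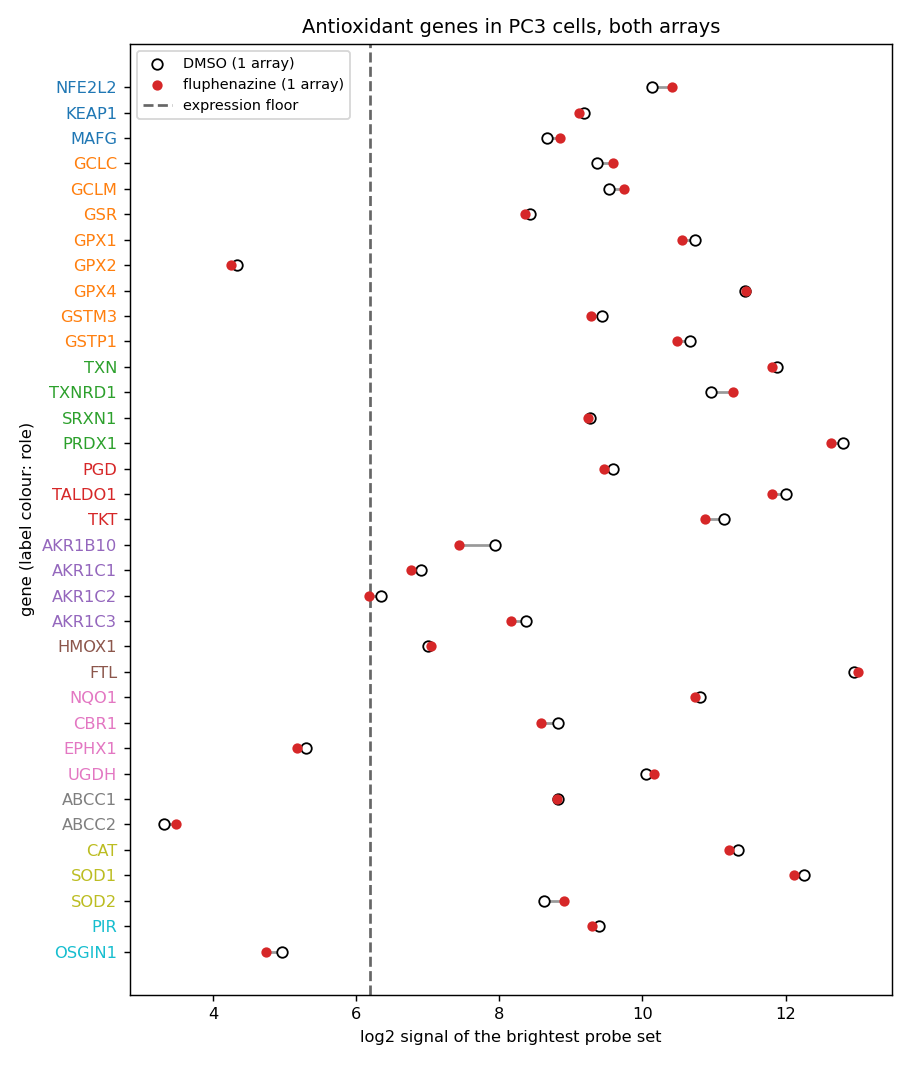
Log2 signal (horizontal axis) of the 35 analysed genes on the DMSO array (open circles) and the fluphenazine array (filled circles), 1 array each with no error bars, with gene names coloured by role and the floor of 6.19 dashed. The paired points lie close together for every gene, the widest gap being that of AKR1B10 at 7.94 and 7.44, and 4 genes lie under the floor.

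Of the 3 regulators, NFE2L2 and MAFG were higher beyond the pooled SD. NFE2L2 had a signal of 10.13 with DMSO and 10.42 with fluphenazine, a factor of 1.22 that lay at percentile 96.4 of the differences of all genes above the floor. Its other probe sets, both under the floor, gave 0.24 and 0.06. A probe set annotated to both NFE2L2 and CSNK2A1, outside the comparison but above the floor, also gave only 0.06 (6.91 and 6.97). MAFG, a small MAF partner of NRF2, was at 8.67 and 8.85, a difference of 0.18, while its second probe set above the floor gave only 0.03. KEAP1, the NRF2 inhibitor, was at 9.19 and 9.11, a difference of -0.08 that is within the pooled SD.

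Antioxidant response elements have a core that can be written TGACNNNGC, here searched on both strands in RefSeq windows (GRCh38.p14) from 250 bases before to 50 bases after the start of a transcript. The core occurred in 10 of the 42 windows of 30 listed genes (23.8%) and in 13.3% of all 35116 windows. These 30 genes include AKR1B1, which was not analysed. AKR1B10, HMOX1, PRDX1, SOD1, GSR, ABCC1 and FTH1 had no window. Sequence outside the windows was not searched, so the share is not a survey of all elements of these genes. The matches of genes above the floor are printed because they fall on both sides of the comparison, at GCLM and TXNRD1, which were higher, and at CBR1, GSTP1, KEAP1 and PGD, which were lower. The match of PIR, 27 bases after the start, is not printed. Each line gives 29 bases, 5′ to 3′ in the direction of the gene, with the core in capitals. Where the core lies on the opposite strand it reads GCNNNGTCA.
GCLM, chr1:93909446-93909474, minus strand: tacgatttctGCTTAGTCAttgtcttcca
TXNRD1, first start, chr12:104215670-104215698, plus strand: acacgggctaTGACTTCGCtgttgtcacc
TXNRD1, first start, chr12:104215761-104215789, plus strand: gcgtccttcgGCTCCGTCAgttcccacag
TXNRD1, second start, chr12:104286920-104286948, plus strand: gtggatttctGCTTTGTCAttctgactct
CBR1, chr21:36069855-36069883, plus strand: tgcgggttctGCAAAGTCAggctagctgg
GSTP1, chr11:67583736-67583764, plus strand: gccggcgccgTGACTCAGCactggggcgg
KEAP1, chr19:10502807-10502835, minus strand: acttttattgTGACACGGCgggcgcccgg
KEAP1, chr19:10502784-10502812, minus strand: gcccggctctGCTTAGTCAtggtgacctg
PGD, chr1:10398853-10398881, plus strand: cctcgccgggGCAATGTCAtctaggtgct
The matches of GSTP1 and PIR also hold TGACTCA, the letters of an AP-1 site, on the gene's strand or the opposite one. Anywhere in a window and on either strand, these letters occurred in 4.95% of all windows. That search is wider than one at a core match, so the share is not a background for these matches. Among windows of genes above the floor, the core was in 3 of 16 windows of higher genes (18.8%) and in 5 of 18 windows of lower genes (27.8%). The 16 windows belong to 9 genes and the 18 to 16 genes, and different starts of one gene count separately. TXNRD1, for example, held the core at both of its starts. These are matches of letters and not measured binding sites.

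The listed genes of glutathione synthesis, GCLC and GCLM, were higher with fluphenazine. GCLC and GCLM encode the catalytic and modifier subunits of glutamate-cysteine ligase, the rate-limiting enzyme of glutathione synthesis. GCLC was at 9.37 with DMSO and 9.59 with fluphenazine, a factor of 1.17, and its second bright probe set gave 0.25, while a dim one under the floor gave -0.01. GCLM was at 9.53 and 9.74, a 1.16-fold difference, and all 3 of its probe sets, including 1 under the floor, lay between 0.18 and 0.21. Both subunits were thus higher by similar amounts, in each of their bright probe sets. Glutathione synthetase, GSS, was not among the listed genes and was not higher. It was at 10.14 with DMSO and 10.08 with fluphenazine, within the pooled SD, and its probe sets gave -0.07 and -0.10.

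The listed enzymes that use or recycle glutathione were flat or lower. GPX1, the cytosolic glutathione peroxidase, was at 10.74 with DMSO and 10.55 with fluphenazine, a difference of -0.20. The conjugating transferase GSTP1 was at 10.67 and 10.48, and GSTM3, another transferase, was at 9.43 and 9.28. GSR, which reduces oxidised glutathione with NADPH, was at 8.43 and 8.36, within the pooled SD, although its second probe set gave -0.18. GPX4, which reduces lipid peroxides in membranes, was level at 11.44 and 11.45, and the sign of that difference turned under quantile normalization. GPX2, known mainly from the gut, was under the floor at 4.34 and 4.25.

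In the thioredoxin system TXNRD1 was higher and the other 3 listed genes were level or lower. TXNRD1, the cytosolic reductase that passes electrons from NADPH to thioredoxin, was at 10.96 with DMSO and 11.26 with fluphenazine. This 1.24-fold difference was the largest positive one on the list, at percentile 96.9 of all genes, and it rests on 1 probe set. Its substrate TXN was at 11.88 and 11.81, with a second probe set at 0.04. SRXN1, which repairs overoxidised peroxiredoxins, was at 9.27 and 9.24, and the peroxiredoxin PRDX1 was at 12.81 and 12.64, a difference of -0.17.

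All 3 genes of NADPH supply and the pentose phosphate pathway were lower. PGD makes NADPH in the oxidative branch, and TALDO1 and TKT exchange sugar carbons in the non-oxidative branch. TKT was at 11.14 with DMSO and 10.87 with fluphenazine, a factor of 1.20 at percentile 4.55, but its second probe set above the floor gave only -0.06. TALDO1 was at 12.00 and 11.81, a difference of -0.19. PGD was at 9.59 and 9.47, within the pooled SD, and its dim probe sets, under the floor, gave 0.17 and 0.19. With the mean of all probe sets the PGD difference was 0.08 and not -0.12.

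The aldo-keto reductases were lower in all 4 members analysed, with a median of -0.19. These enzymes reduce carbonyls with NADPH, and the AKR1C members also act on steroids. AKR1B10, which reduces retinaldehyde and lipid aldehydes, was at 7.94 with DMSO and 7.44 with fluphenazine. This 1.41-fold difference was the largest of the list in either direction, at percentile 0.609 of all genes. It was read by 1 probe set, which is itself marked as able to match several transcripts, so AKR1B10 has no value without such probe sets. AKR1C3, which makes testosterone from androstenedione, was at 8.37 and 8.16, a difference of -0.21 from 1 probe set.

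AKR1C1 and AKR1C2 are near-identical genes, so which of them a probe set reads is uncertain. AKR1C1 was at 6.91 with DMSO and 6.76 with fluphenazine, and its second probe set above the floor gave -0.37, while its dim ones gave -0.01 and -0.07. AKR1C2 was at 6.35 and 6.18, and its second probe set gave 0.11, the opposite sign. Without probe sets marked as able to match several transcripts, AKR1C1 was at -0.01, from a dim probe set under the floor, and AKR1C2 had no probe set. The AKR1C1 and AKR1C2 values lay near the floor.

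Heme and iron genes were nearly level. HMOX1, heme oxygenase and a widely used readout of oxidative stress, was at 7.01 with DMSO and 7.05 with fluphenazine. FTL, the ferritin light chain, was at 12.96 and 13.01, and its second probe set gave -0.01. NQO1, the quinone reductase that is the customary marker of NRF2 activity, was at 10.80 and 10.74, and its 3 probe sets ranged from -0.20 to -0.03. The difference of neither HMOX1 nor NQO1 was positive beyond the pooled SD.

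The remaining detoxifying enzymes went both ways. CBR1, a carbonyl reductase, was at 8.82 with DMSO and 8.59 with fluphenazine, a factor of 1.17 at percentile 6.67. UGDH, which makes UDP-glucuronate for conjugation, was at 10.05 and 10.16, a difference of 0.10. PIR, an iron-binding nuclear protein known as an NRF2 target, was at 9.39 and 9.30. The epoxide hydrolase EPHX1, at 5.30 and 5.18, and the NRF2 target OSGIN1, at 4.97 and 4.74, were under the floor. The drug and conjugate exporter ABCC1 was level at 8.82 and 8.81, with a sign that turned when the arrays were centred on their medians, and ABCC2 was under the floor at 3.32 and 3.48.

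Superoxide dismutases and catalase were also split. SOD2, the mitochondrial dismutase and a known NF-kB target, was at 8.63 with DMSO and 8.91 with fluphenazine, a factor of 1.21 at percentile 95.8. SOD1, the cytosolic dismutase, was at 12.26 and 12.12. CAT, the peroxisomal catalase, was at 11.34 and 11.21, and its second probe set above the floor gave -0.21. The mitochondrial enzyme was thus higher while the cytosolic and peroxisomal ones were lower, each by small amounts.

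**Figure D2:**
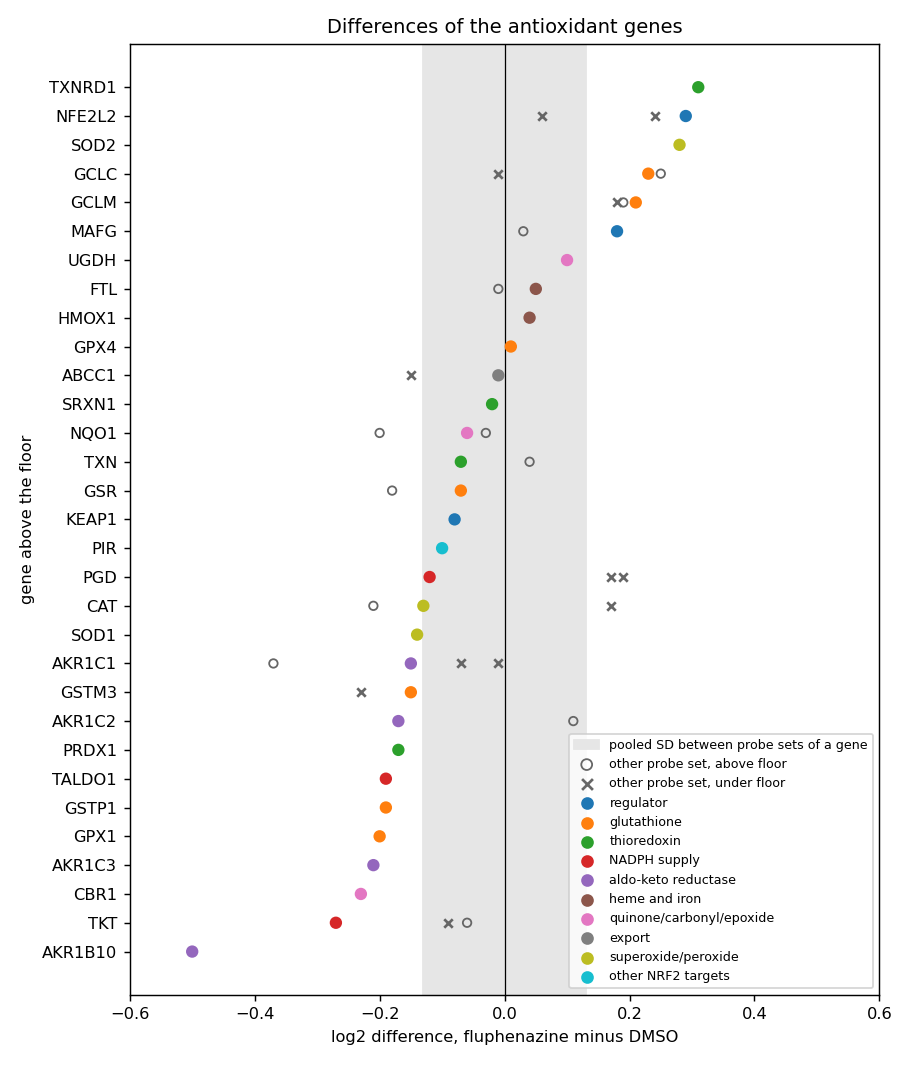
Log2 difference, fluphenazine minus DMSO (horizontal axis), of the 31 genes above the floor, ordered by size and coloured by role, with their other probe sets as open circles (above the floor) or crosses (under it) and the pooled SD of 0.13 in grey. TXNRD1 at 0.31 and AKR1B10 at -0.50 are the ends of the range, and 12 genes lie inside the grey band.

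Probe sets of one gene had the same sign in 8 of the 11 listed genes that had at least 2 above the floor, where 56.7% of such genes did over the whole array. Those of GCLC, GCLM and MAFG were all higher. Those of AKR1C1, CAT, GSR, NQO1 and TKT were all lower. AKR1C2, FTL and TXN had probe sets of both signs.

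A wider list of 100 genes of the same pathways, of which 91 were analysed and 66 were above the floor, had a median of -0.03, with 28 higher and 38 lower, where 48.2% of all genes were higher and 51.8% lower. At the probe set that represents it, none of these genes reached 1.5-fold. At 0.32 or more in size, 5 were higher, namely SLC7A11, CHAC1, SQSTM1, SESN2 and MTHFD2, against 2.69% of all genes, and EPHX2 was the 1 lower, against 2.58%. Beyond the pooled SD, 10 were higher and 11 lower, against 17.9% and 19.6% of all genes.

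The higher ones included both sides of cystine and glutathione handling. SLC7A11, the cystine importer, was at 9.23 with DMSO and 9.71 with fluphenazine, a factor of 1.4, and CHAC1, which degrades glutathione, was at 6.62 and 7.04. SQSTM1, a cargo receptor that sequesters KEAP1, was at 9.32 and 9.75. SESN2, a stress-induced sestrin, was at 6.27 and 6.79, and MTHFD2, the mitochondrial folate enzyme, was at 11.73 and 12.12. Of their other probe sets above the floor, the highest gave 0.74 for SESN2, 0.60 for SQSTM1 and 0.59 for SLC7A11. These pass 1.5-fold, which is 0.58 in log2. CHAC1 and MTHFD2 each had only 1 probe set above the floor. SLC7A11, CHAC1, SESN2 and MTHFD2 are also known as targets of the stress factor ATF4. Whether ATF4 had a part in these differences was not tested.

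Within the roles of the wider list, most differences were within the pooled SD, and the counts by sign stand against the 48.2% of all genes that were higher and the 51.8% that were lower. In the glutathione group the largest negative difference was that of GSTA4 at -0.15, and 11 of 17 were lower, 1 of them beyond the pooled SD, with 3 higher beyond it. Among thioredoxin genes 6 of 7 were lower, of which only PRDX3, the mitochondrial peroxiredoxin, at -0.14, was beyond the pooled SD. In NADPH supply 8 of 12 were higher, 1 of them beyond the pooled SD, and IDH2, the mitochondrial isocitrate dehydrogenase, was at -0.21.

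The wider quinone, carbonyl and epoxide group was lower in 5 of 5, with a median of -0.24, and 3 of these were beyond the pooled SD. EPHX2, the soluble epoxide hydrolase, was at 6.69 with DMSO and 6.24 with fluphenazine, and CBR3, a carbonyl reductase next in kind to CBR1, was at 8.59 and 8.29, both from 1 probe set. Only AKR7A2 at -0.09 and AKR7A3 at 0.07 were above the floor among the other aldo-keto reductases, on either side of 0. Among heme and iron genes ACO1, which doubles as an iron sensor, was at 0.22 and the biliverdin reductase BLVRA at -0.14. Of the regulators, 5 of 7 were higher, 3 of them beyond the pooled SD, and RBX1, of the CUL3 ligase, was at -0.13. The exporters ranged from ABCC5 at -0.06 to ABCC10 at 0.03, CCS, the copper chaperone of SOD1, was at -0.08, and TRIM16 and ETFB were at 0.11 and -0.20.

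**Figure D3:**
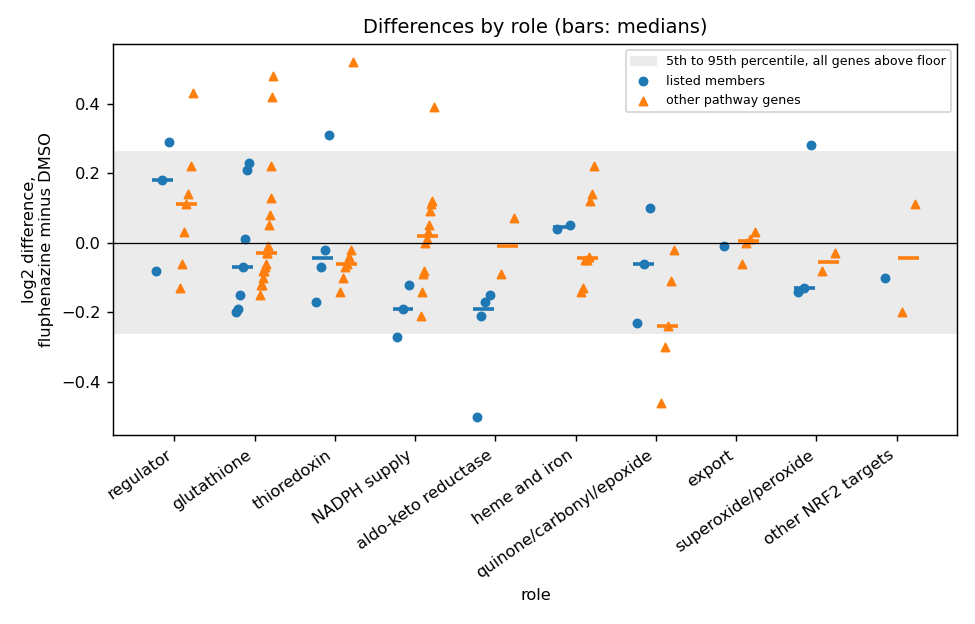
Log2 difference, fluphenazine minus DMSO (vertical axis), by role for the 31 listed genes (circles) and 66 other pathway genes (triangles) above the floor, with medians as bars and the 5th to 95th percentile of all genes, -0.26 to 0.26, in grey. The listed aldo-keto reductases and NADPH supply genes lie below 0, the listed regulators have a median of 0.18, and SESN2 at 0.52 is the highest point.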

How the data were processed

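PC3 RNA was labelled with biotin and read on 1 array per treatment. Per the labels' protocols the labelling kit was a whole-transcript one, whereas the probe set identifiers are those of an array with probes near the 3′ ends, and how the kit was used with it is unstated in the sources used here. The authors' deposited log2 signals, 1 per probe set and array, were used as given. RMA, Transcriptome Analysis Console 3.1 and Expression Console 1.4 are named in the submitters' processing notes without saying which step each performed. Such values show changes relative to the other genes on an array, not in total RNA. The sources used here do not give a genome build for the annotation.

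Of 47693 probe sets, 37145 had 1 gene in the platform annotation of 2016 after control probe sets were left out, and 1668 had several. Symbols were updated through gene identifiers, except for 39 genes. Members, role lists and floor were chosen with earlier results of these data known. All 37 members are named. From the wider list, the largest difference in each direction per role and any at 1.5-fold are named. CHAC1, CBR3 and GSS were added after their values were seen. Precision is limited by the number of arrays. Python 3.11.15, pandas 2.3.3, numpy 2.4.6, R 4.3.3 and limma 3.58.1 (quantile normalization) were used, and the steps were tested on simulated data. Promoter windows came from RefSeq.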

Additional observations from a re-analysis of the deposited data

Results flagged for a closer look

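Probe sets annotated to both SOD2 and SOD2-OT1, an overlapping transcript, lie outside the comparison, which used probe sets of a single gene. All 4 were higher with fluphenazine by more than the pooled SD. The bright ones differed by 0.38 (9.67 with DMSO against 10.05), 0.46 (8.85 against 9.31) and 0.30 (8.62 against 8.92). The dim one differed by 1.04 (3.18 against 4.22), with both values under the floor. Which of the 2 transcripts they read cannot be told apart. Only probe sets of several genes that were higher by more than the pooled SD were flagged. The one annotated to NFE2L2 and CSNK2A1 differed by 0.06 (6.91 with DMSO against 6.97). The one annotated to AKR1C2 and AKR1C1 differed by -0.17 (2.22 against 2.05), under the floor.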

How the results depend on the processing

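No paired analysis was possible because each treatment has 1 array. Nor could a replicate be left out. The median difference of the antioxidant genes, -0.08, ranged from -0.10 to -0.07 under the scalings, the mean or median of probe sets, the other floors and the list without AKR1B10. It was -0.05 as a mean over genes and -0.01 without probe sets marked as matching several transcripts, where 20 genes were left. In that setting 11 genes were lower and 6 were lower by more than the pooled SD, against 21 and 13, and the median of the wider list was -0.06. Among the listed genes, a threshold of 0.32 (log2) gave 1 lower gene in place of 0. None of the listed genes reached 1.5-fold under any scaling or probe set summary. In the wider list, SESN2 was at 0.63 with the mean of its probe sets, which is past 1.5-fold. Besides PGD, single listed genes that moved by more than the pooled SD were AKR1C2 (-0.03 with the mean of probe sets) and TKT (-0.06 with their median). Without the probe sets marked as matching several transcripts, TKT (-0.09) and AKR1C1 (-0.01) moved as well. The latter values came from probe sets under the floor, at 5.26 and 5.17 for TKT and 3.52 and 3.51 for AKR1C1. The sign of TXN turned without the marked probe sets. The counts of lower genes at the stricter floor were 16 of 25, with 48.6% of all genes.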
